A study of Glycine max with 15 samples.

Results

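Flowering time and stem growth habit in soybean are set by a small group of well studied loci, and transcript levels of 5 of them were followed here in seedlings in which brassinosteroid supply was changed: E1 (Glyma06g23026), E2 (Glyma10g36600), FT2a (Glyma16g26660), FT5a (Glyma16g04830) and Dt1 (Glyma19g37890). The 5 genes were taken by gene ID, for their known function, out of 54175 IDs in each of 4 expression tables. The tables hold IDs without names, and 0 of the IDs matched the RefSeq gene table for Glycine max (59048 genes), so the names are those in general use for these IDs. RefSeq lists 1 gene under each of the 5 symbols, and in 5 of 5 cases it lies on the chromosome where the tables place the ID. The chromosome number is part of each ID and positions were not compared, so this is a weak check of the names.

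Soybean flowers when days shorten. E1 is a legume-specific nuclear protein that represses flowering in long days, and it does so by holding down FT2a and FT5a, whose proteins are florigens: small proteins made in leaves that move to the shoot tip and turn it to flowering. E2 is a GIGANTEA gene, a component of the circadian clock and of photoperiod sensing whose transcript cycles through the day, and its functional allele delays flowering. Dt1 belongs to the same protein family as the florigens but acts against them, keeping the stem tip vegetative so that the stem goes on growing (indeterminate habit). Brassinosteroids are growth-promoting plant steroids best known for lengthening cells.

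The plants were of cultivar Williams 82, 10 days old and at the first vegetative stage, and whole seedlings were sequenced as stranded mRNA libraries. In the 4 treated groups the watering solution held 5 mM propiconazole (Pcz), which blocks brassinosteroid synthesis. The first group had Pcz alone, the second (Pcz-lowBL) had Pcz with 10 nM brassinolide (BL), the most active brassinosteroid, and the other two had Pcz followed by 1 mM BL, for 1 h (Pcz-BL-1h) or 8 h (Pcz-BL-8h). Control seedlings were mock treated. Each of the 5 groups had 3 libraries, doses are as labelled, and no group had a mock addition in place of the high BL. The labels give no time of day for the collections, so hours of BL and time of day cannot be told apart. This holds for all 5 genes, the clock gene E2 among them. Nor do they say whether a group's libraries stem from different plants, so the authors' p-values may measure technical spread only.

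Expression is given in FPKM (fragments per kilobase of transcript, scaled to library size), as 1 value per group, pooled by the authors over the libraries of that group. The spread between libraries can therefore not be shown, and the measure of error is the authors' own Cuffdiff test of each treated group against control. A gene was called higher or lower at an authors' q of 0.05 or less. The 4 tables go by their sheet names: Pcz for the inhibitor alone, Pcz-BL for the Pcz-lowBL group, and Pcz-BL-1h plus Pcz-BL-8h for the high-BL groups. Inside 3 of them a column header names a different treated group, so which treatment each of those 3 holds is uncertain. All 4 comparisons use the same control libraries and are not independent of each other.

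The 5 genes differed widely in level in control seedlings, on the FPKM scale, which is per transcript length. In the authors' deposited tables E2 had 103.5 to 125 FPKM in control across the 4 tables, above at least 98.4% of all IDs. FT5a had 19.1 to 25.8 FPKM in control by the authors' deposited tables, and FT2a 0.923 to 1.11 FPKM. E1 was near the lower end, with 0.105 to 0.128 FPKM in control in the authors' deposited tables, and Dt1 was listed at 0 in all 4. Against a median of 2.70 to 3.28 FPKM over IDs with a control value above 0, E2 and FT5a were thus well expressed, FT2a weakly, and E1 and Dt1 barely or not detected. Of the 20 combinations of gene and table, 13 were tested by Cuffdiff; the other 7 carry its status for too few reads, namely E1 in 3 tables and Dt1 in 4.

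**Figure D1:**
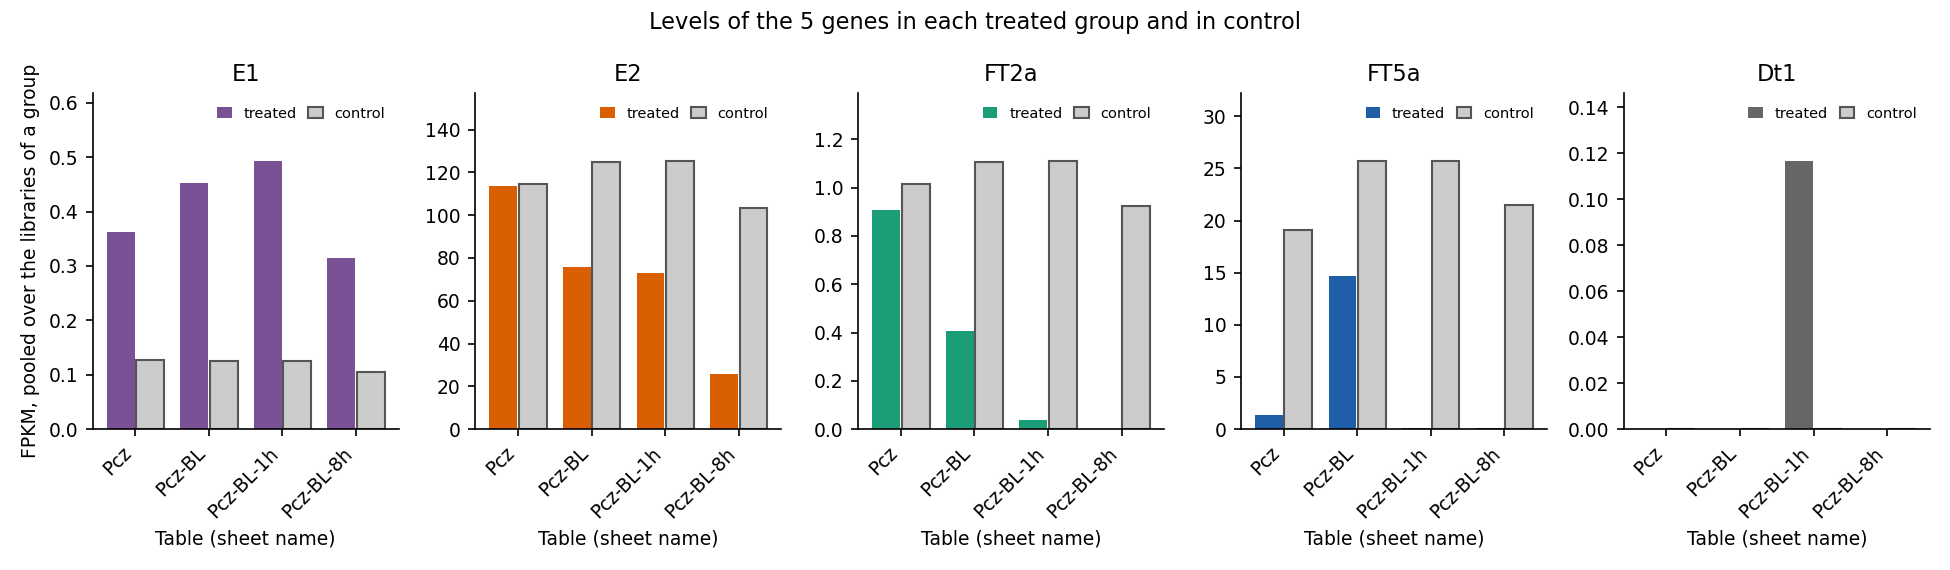
Pooled FPKM (y axis, a scale of its own in each panel) of the 5 genes in each of the 4 tables (x axis), with the treated group as a coloured bar and the control of the same table as a grey bar. FT5a has 14.7 FPKM in Pcz-BL and under 1.4 FPKM in the other treated groups, and E1 stands above control in every table at less than 0.5 FPKM.

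FT5a (chromosome 16, 4115032 to 4116923, coordinates as the tables give them, with the genome build not given in the sources used here) had the largest finite fold changes of the tested members in every table except Pcz-BL. This florigen had 1.33 FPKM in Pcz, against 19.1 FPKM in control, in the authors' deposited table. With low BL beside the inhibitor it had 14.7 FPKM, against 25.7 FPKM in control, in the authors' deposited table. After high BL for 1 h it had 0.109 FPKM, against 25.8 FPKM in control, in the authors' deposited table. At 8 h it had 0.0810 FPKM, against 21.5 FPKM in control, in the authors' deposited table. FT5a was lower than control in each of the 4 tables, least so in the sheet Pcz-BL, and nearly absent in the sheets Pcz-BL-1h plus Pcz-BL-8h. By column header it would instead be the 1 h group that kept FT5a nearest to control, at -0.81 on the log2 scale, and the low-BL group that stood at -8.05. In bulk seedlings, fewer cells of a type and less RNA per cell cannot be told apart, and this holds for every value here.

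Each of the 4 falls of FT5a passed the authors' test. The log2 fold change was -3.85 in Pcz (q = 0.000188, standard error 0.449) in the authors' deposited table, where FT5a kept 6.96% of its control level. In Pcz-BL it was -0.81 (q = 0.00722, standard error 0.429) in the authors' deposited table, with 57.1% of control left. For Pcz-BL-1h the authors' deposited table gives -7.88 (q = 0.0109, standard error 1.47), or 0.425% of control, and for Pcz-BL-8h -8.05 (q = 0.00629, standard error 1.42), or 0.377% of control. Standard errors were taken as the ratio of the fold change to the authors' test statistic, and a 95% interval spans 1.96 of them to each side. The interval in Pcz-BL was -1.65 to 0.03 and includes no change, although the authors' test called the gene; with a normal p for the authors' Cuffdiff statistic that call was lost (q = 0.219), while over genes with at least 1 FPKM in either group it held (q = 0.00674). The Pcz-BL fall was also under 2-fold. Fold changes of values this low depend on how they are formed: with a pseudocount of 1 FPKM the log2 fold changes of FT5a were -3.11, -0.77, -4.59 and -4.38 in the 4 tables, from Pcz alone to 8 h of high BL. Among tested genes with a finite fold change, ranked from the lowest, FT5a stood at place 10 of 36462 after 1 h of high BL and 18 of 34324 after 8 h, against place 1094 of 33481 with Pcz alone and 7874 of 35189 with low BL.

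The control level of FT5a itself depended on the table. The control value in Pcz was 0.744 times that in Pcz-BL, a ratio as low or lower in 1.64% of 29428 genes with at least 1 FPKM in both. With control averaged over the 4 tables the log2 fold change in Pcz was -4.11, so the size of this fall moved little with the choice of control.

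FT2a (chromosome 16, 30741659 to 30746677), the other florigen and 26.6 Mb from FT5a, had a value near control in Pcz alone. By sheet name it had low values in both high-BL groups, of which the 8 h one passed the test. In Pcz it had 0.909 FPKM, against 1.02 FPKM in control, in the authors' deposited table (-0.16 on the log2 scale, q = 0.787). The 95% interval of that change was -1.42 to 1.10, so a difference of about 2-fold in either direction lies within it. In Pcz-BL it had 0.405 FPKM, against 1.11 FPKM in control, in the authors' deposited table (-1.45 on the log2 scale, q = 0.0489). That call was near the threshold and was lost with a normal p for the Cuffdiff statistic (q = 0.396); over genes with at least 1 FPKM it held (q = 0.0473).

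By sheet name, FT2a was barely detected after high BL. At 1 h it had 0.0394 FPKM, against 1.11 FPKM in control, in the authors' deposited table (-4.82 on the log2 scale, q = 0.314). This difference did not pass the test, its standard error was 2.32, and with a pseudocount of 1 FPKM it was -1.02. At 8 h the authors' deposited table lists FT2a at 0, against 0.923 FPKM in control, and calls it lower (q = 0.000181); no fold change is given for a value of 0. This call could not be checked by a normal p, since the table holds no numeric statistic for it, and it dropped out over genes with at least 1 FPKM in either group. The low level of FT2a in control limits what these 2 tables can resolve, and the read depth behind the pooled values is unknown. By column header the low-BL group would be the one listed at 0, and the 8 h group the one at 0.0394 FPKM. The 1 h group would then have 0.405 FPKM (-1.45 on the log2 scale, q = 0.0489 by the authors' test).

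E2 (chromosome 10, 44716719 to 44738268), the GIGANTEA gene, had nearly the same value as control under the inhibitor alone. By sheet name it was called lower in both high-BL tables. In Pcz it had 113.7 FPKM, against 114.5 FPKM in control, in the authors' deposited table (-0.01 on the log2 scale, q = 0.977). The 95% interval was -0.78 to 0.76. In Pcz-BL it had 75.7 FPKM, against 125 FPKM in control, in the authors' deposited table (-0.72 on the log2 scale, q = 0.0521), which narrowly missed the threshold. After 1 h of high BL it had 73.0 FPKM, against 125 FPKM in control, and passed it in the authors' deposited table (-0.78 on the log2 scale, standard error 0.351, q = 0.000354). These values are nearly the same as with low BL, and only the test result differs; that call was lost with a normal p for the Cuffdiff statistic (q = 0.0778) and held over genes with at least 1 FPKM (q = 0.000333). At 8 h E2 had 25.5 FPKM, against 103.5 FPKM in control, in the authors' deposited table (-2.02 on the log2 scale, standard error 0.460, q = 0.000181), or 24.7% of control. Even at this lowest level E2 stood above 92.4% of all IDs in the Pcz-BL-8h group. By column header the low-BL group would be the one at -2.02. The 1 h group would then be at -0.72 and not called, and the 8 h group at -0.78.

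**Figure D2:**
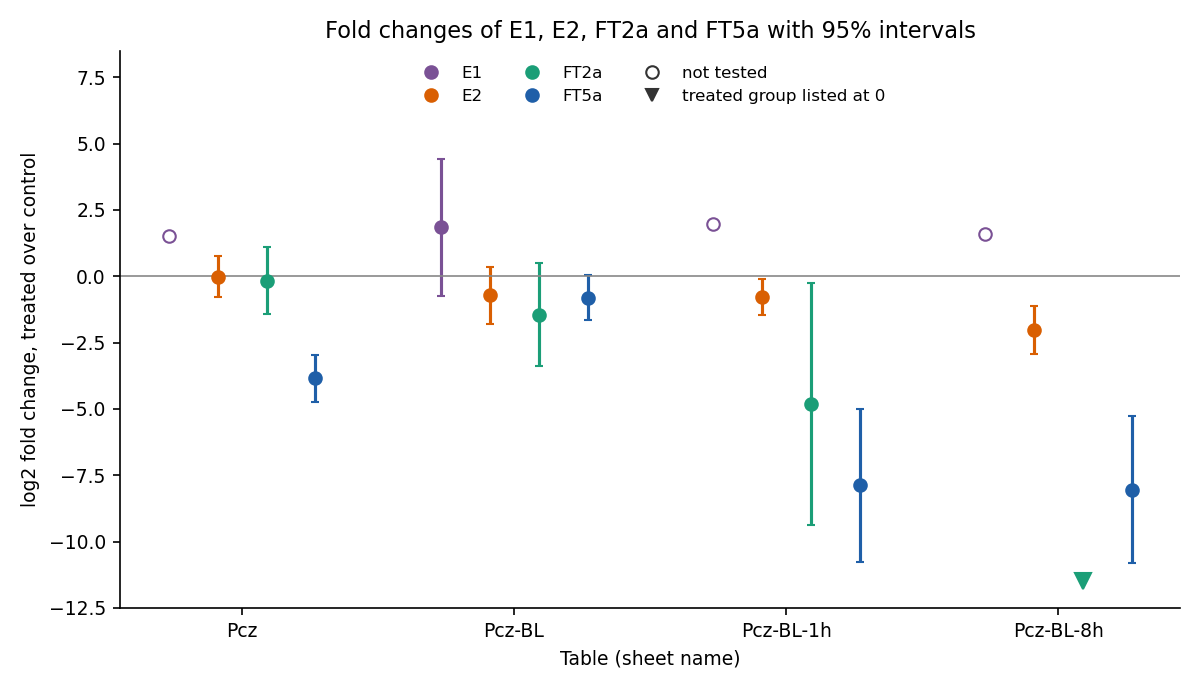
Log2 fold change of treated over control (y axis) for E1, E2, FT2a and FT5a in the 4 tables (x axis), with 95% intervals from the authors' test statistic as bars. Open circles are values Cuffdiff did not test, and the triangle marks FT2a in Pcz-BL-8h, listed at 0 and drawn at no true fold change; FT5a lies at -7.88 and -8.05 in the 2 high-BL tables and E2 at -2.02 in the last.

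E1 (chromosome 6, 20006927 to 20007814), the repressor of both florigens, was the only member with higher values than control in all 4 tables, and it passed the test in none. It had 0.362 FPKM in Pcz, against 0.128 FPKM in control, in the authors' deposited table. In Pcz-BL it had 0.452 FPKM, against 0.125 FPKM in control, and in Pcz-BL-1h 0.494 FPKM, against 0.126 FPKM in control, in the authors' deposited tables. In Pcz-BL-8h it had 0.315 FPKM, against 0.105 FPKM in control, in the authors' deposited table. The treated values were 2.84 to 3.92 times control, at levels where Cuffdiff tested the gene in 1 table only. With a pseudocount of 1 FPKM its log2 fold changes were 0.25 to 0.41, far smaller than as deposited. In that table, Pcz-BL, the authors' deposited test gave a log2 fold change of 1.85 with p = 0.0367 and q = 0.0890. The standard error was 1.32 and the 95% interval -0.73 to 4.43, so neither a large rise nor no change lies outside it.

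Dt1 (chromosome 19, 44979742 to 44981657), the gene of stem growth habit, was listed at 0 in control and in 3 treated groups. Its only value above 0 was 0.117 FPKM in Pcz-BL-1h, against 0 in control, in the authors' deposited table, and it was not tested there. Dt1 was therefore not detected in these whole seedlings at a level that allows a comparison; between 15.2% and 20.6% of all IDs were listed at 0 in the treated groups and 19.4% in control.

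Counted over the 5 genes, the authors' Cuffdiff test called 1 lower with Pcz alone, 2 with low BL, 2 after high BL for 1 h and 3 after 8 h, and called 0 higher in any table. At an unadjusted p under 0.05, E1 in Pcz-BL was the 1 higher member, and with a normal p for the Cuffdiff statistic 0 were higher. Of all tested genes, 53.4%, 36.2%, 52.1% and 56.5% were called in the 4 tables in that order. The share called lower was 28.4%, 22.8%, 26.5% and 30.7%, and the share called higher 24.9%, 13.4%, 25.6% and 25.8%. With so many genes called, the 1 to 3 lower members among the 3 or 4 tested are not a result about the group. Median log2 fold changes of the tested members with a finite value were -0.16, -0.77, -4.82 and -5.03 in the 4 tables in the same order, beside medians of 0.01, -0.13, -0.07 and -0.10 over all tested genes. The member medians rest on at most 4 genes, not the same in each table, and are no result about the group either. The -4.82 is the value of FT2a, which was not called, and -5.03 lies between E2 and FT5a, the only finite values there.

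**Figure D3:**
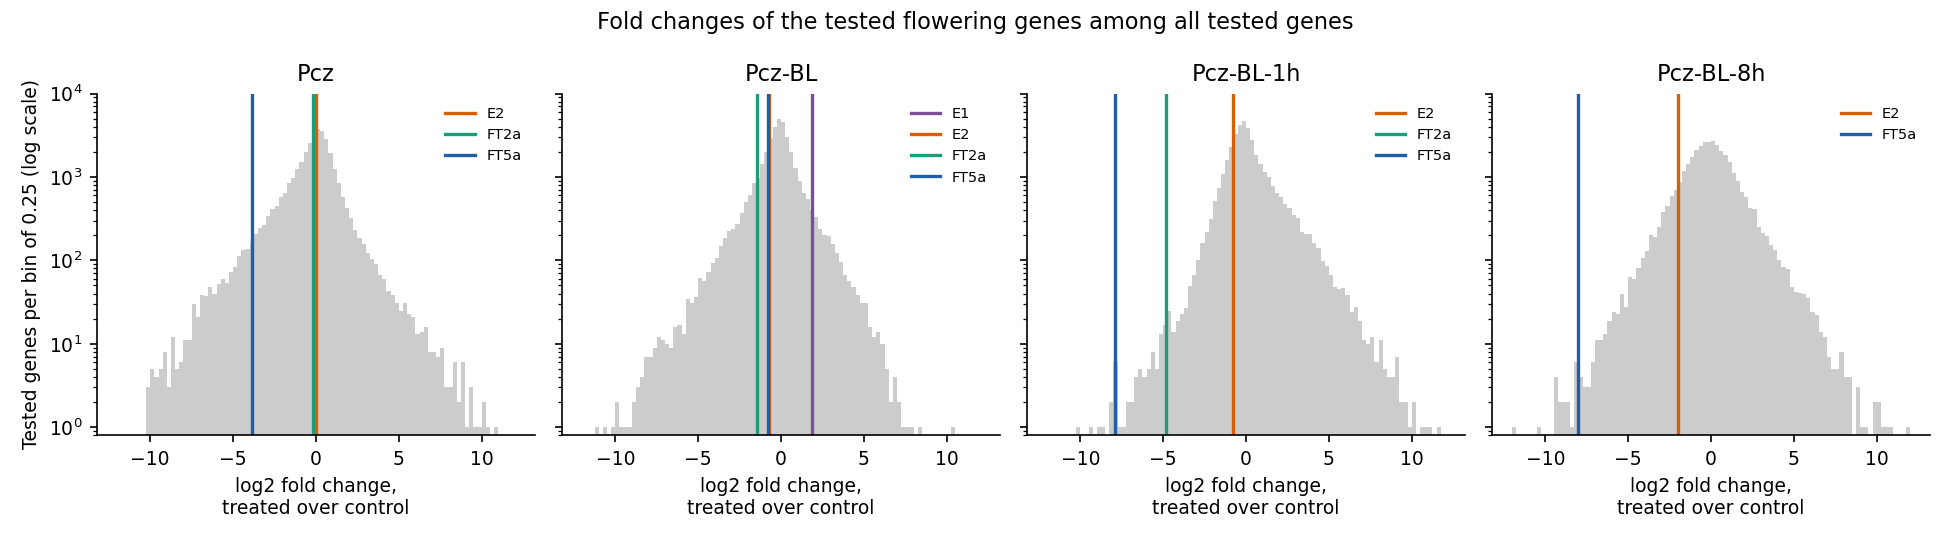
Number of tested genes (y axis, log scale) by log2 fold change of treated over control (x axis, bins of 0.25) in the 4 tables, with vertical lines at the tested flowering genes that have a finite value. FT5a moves from the body of the distribution in Pcz-BL, at -0.81 beside E2 at -0.72, to its far lower end in both high-BL tables, while E2 stays within the body in Pcz-BL-1h, at -0.78, and lies at -2.02 in Pcz-BL-8h.

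The treated groups were next set against each other, which the authors' tables do not test. For each gene the log2 fold changes of 2 tables were subtracted and compared by a z test from both standard errors, with p adjusted over all genes of the pair. Errors were taken as independent although both tables use the same control, and because each fold change is taken within a table, the scale of the tables does not enter. A shift in a gene's own control value between tables does enter, as for FT5a. For Pcz-BL against Pcz, its log2 ratio of treated FPKM was 3.46, against a difference of fold changes of 3.04. The standard normal distribution gave the p of each difference. The test was possible for 15 combinations of gene and pair, 6 for E2, 6 for FT5a and 3 for FT2a, and 6 of the 15 passed. Groups are named by sheet, and the direction of several differences turns if the column headers are right, as given with each gene.

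FT5a separated the treatments most clearly. It was higher in Pcz-BL than in Pcz, with 14.7 against 1.33 FPKM and a difference of 3.04 on the log2 scale (standard error 0.621, q = 0.000108). Only 3.29% of 32959 genes were called higher in that pair. After high BL, FT5a was lower than in Pcz both at 1 h, by a difference of -4.03 (standard error 1.54, q = 0.0373), and at 8 h, by -4.20 (standard error 1.49, q = 0.0176). Of all genes in those pairs, 10.1% and 16.9% were called lower. Both q values rest on a normal p, which the authors' own p does not follow for FT5a in the high-BL tables. Against control, a normal p gave FT5a q = 1.59e-06 in Pcz-BL-1h and q = 4.47e-07 in Pcz-BL-8h. The authors' Cuffdiff test gave q = 0.0109 and q = 0.00629 there. Differences of FT5a that use these 2 tables may thus be less certain than their q values show. Against Pcz-BL the differences were -7.07 at 1 h (q = 0.000110) and -7.24 at 8 h (q = 2.62e-05), in pairs where 4.34% and 11.1% of genes were called lower. From low to high and by sheet name, the order of the FT5a values was both high-BL groups, Pcz, Pcz-BL and control. Its last step is uncertain: the interval against control was -1.65 to 0.03, and a normal p for the Cuffdiff statistic gave q = 0.219. The step between Pcz and high BL shrinks with a pseudocount of 1 FPKM. The log2 fold changes against control were then -3.11 for Pcz, -4.59 for 1 h and -4.38 for 8 h. Differences on that scale were not tested. By column header the low-BL group and the 8 h group would be lowest, then Pcz, then the 1 h group and control. The difference from Pcz would then be -4.20 with low BL (q = 0.0176) and 3.04 after 1 h of high BL (q = 0.000108), each the reverse of its direction by sheet, while that after 8 h would be -4.03 (q = 0.0373). The difference between the high-BL groups, 8 h minus 1 h, was -0.17 with an interval of -4.17 to 3.83. With values this close to 0 that interval holds differences of more than 10-fold in either direction.

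For E2, 1 of 6 pairs passed: it was lower in Pcz-BL-8h than in Pcz, with 25.5 against 113.7 FPKM and a difference of -2.01 (standard error 0.604, q = 0.00451, with 16.9% of genes called lower). The step between high BL at 8 h and at 1 h, with 25.5 against 73.0 FPKM, was -1.24 with an interval of -2.37 to -0.10. It did not pass after adjustment over all genes (q = 0.191, in a pair where 4.94% of genes were called lower). The difference of Pcz-BL-8h from Pcz-BL was -1.30 (interval -2.69 to 0.10, q = 0.179). Pcz-BL-1h and Pcz-BL differed by -0.06, with an interval of -1.32 to 1.21. Against Pcz, the differences were -0.77 in Pcz-BL-1h (interval -1.80 to 0.26) and -0.71 in Pcz-BL (interval -2.02 to 0.59). From low to high, the order of E2 was Pcz-BL-8h, then Pcz-BL-1h, low BL and the inhibitor alone; no neighbours in it passed the test, and only the ends did. By column header the group lowest in E2 would be the low-BL one, at -2.01 from Pcz (q = 0.00451), and the 8 h group would not differ from Pcz past the threshold (-0.77, q = 0.296).

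FT2a gave no pair that passed. Its difference was -1.29 for Pcz-BL against Pcz (interval -3.60 to 1.03), -4.66 for Pcz-BL-1h against Pcz (interval -9.38 to 0.07, q = 0.148) and -3.37 for Pcz-BL-1h against Pcz-BL (interval -8.32 to 1.58). By column header, -1.29 would be the difference of the 1 h group from Pcz, and -4.66 that of the 8 h group. With the inhibitor alone FT5a had 6.96% and FT2a 89.4% of control; whether the 2 fold changes differ from each other was not tested. E1 and Dt1 allow no such test. E1 had 0.315 to 0.494 FPKM over the 4 treated groups, the highest being 1.56 times the lowest.

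**Figure D4:**
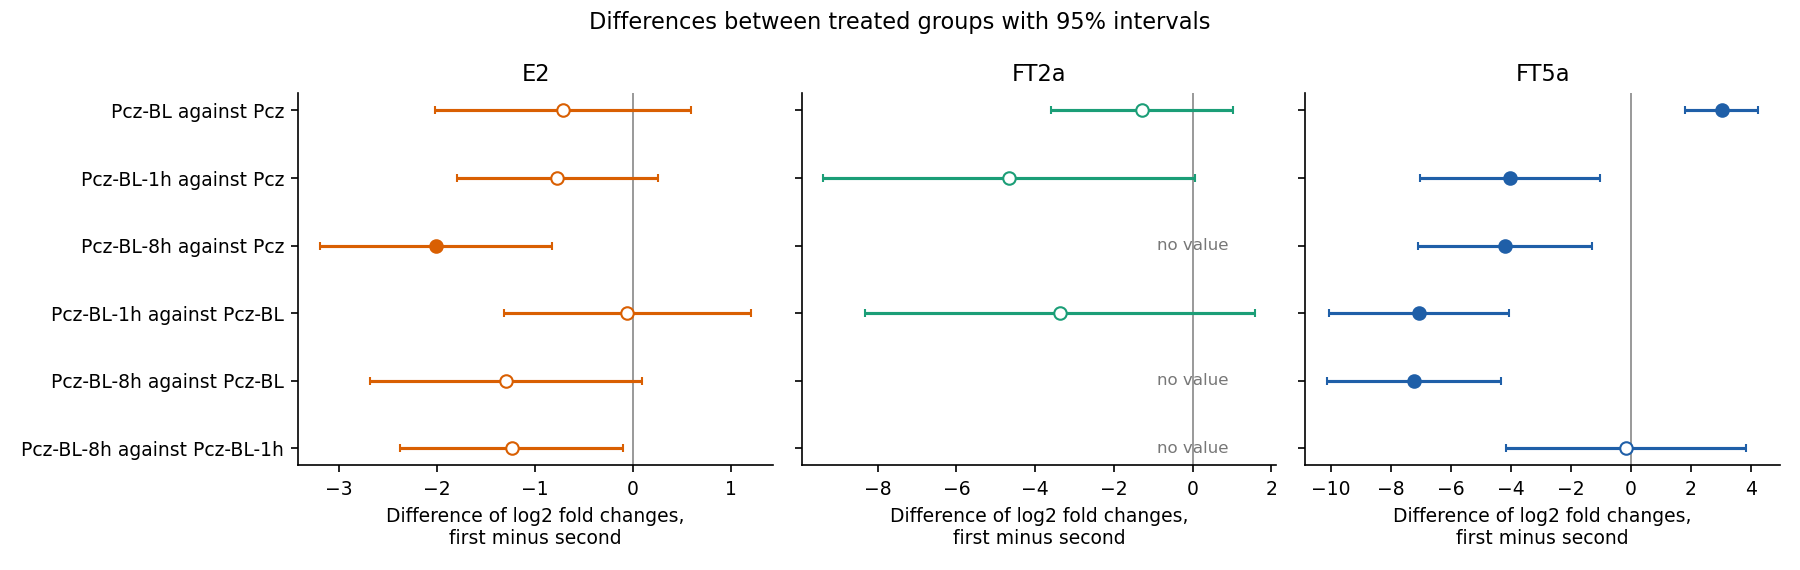
Difference of log2 fold changes between 2 treated groups (x axis, first minus second group named on the y axis) for E2, FT2a and FT5a, with 95% intervals; filled points passed the z test after adjustment over all genes and open points did not. FT5a passes in 5 of 6 pairs, E2 in 1 of 6 and FT2a in 0 of 3.

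The nearest tested genes on either side of the members went with them in some tables and against them in others. Of 40 combinations of neighbour and table, 8 were called lower, 5 higher and 27 were not called. The nearest tested gene before FT5a, 4.86 kb away, had 15.1 to 30.8 FPKM in the treated groups, against 14.5 to 17.6 FPKM in control, and was called higher in Pcz-BL-8h and in no other table of the authors' deposited tables. The nearest tested gene after FT5a, 40.1 kb away, was called in 0 of 4. The gene before FT2a, 6.29 kb away, was lower in each of the authors' deposited tables but Pcz-BL-8h, where it was higher and where FT2a was listed at 0. The gene after FT2a, 8.69 kb away, was called lower in Pcz-BL-8h, as FT2a was (-1.23 on the log2 scale, q = 0.00701, in the authors' deposited table). The gene before E2 was also called lower there, as E2 was (-0.66 on the log2 scale, q = 0.0264, in the authors' deposited table). The gene after E2 was called higher, with 147 FPKM in Pcz-BL-8h, against 59.9 FPKM in control, in the authors' deposited table (1.30 on the log2 scale, q = 0.000181). The nearest tested genes to E1 were far from it, 124 kb before and 71.1 kb after. Both were called lower in Pcz-BL-8h in the authors' deposited table (-2.90 and -1.35 on the log2 scale). They had 0.393 and 0.248 FPKM there, against 2.94 and 0.630 FPKM in control. E1 itself was above control there and not tested. Of all tested genes in Pcz-BL-8h, 30.7% were called lower and 25.8% higher. None of the 5 loci overlapped another locus of the tables.

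The gene with the course most like that of E2 was Glyma17g36840, at a Euclidean distance of 0.174 over the 4 log2 fold changes, the smallest of 31885 genes tested in all 4 tables, against a median distance of 2.58. It had log2 fold changes of 0.13, -0.75, -0.73 and -1.93 in the authors' deposited tables, in the order used above, with 2.20 FPKM in Pcz-BL-8h, against 8.38 FPKM in control. The gene most like E1, Glyma06g05590, lay at a distance of 0.328, against a median distance of 4.11. It was called higher in 4 of 4 of the authors' deposited tables, with log2 fold changes of 1.38, 1.66, 1.80 and 1.41 in the same order and control values of 0.631 to 0.760 FPKM. Its direction follows from how it was picked, so its calls say nothing about E1, which itself passed the test in no table. FT5a had no match as close in distance. The nearest gene, Glyma01g04285, was at a distance of 2.89, against a median distance of 11.7. It was not nearly as low in Pcz, with a log2 fold change of -1.43 in the authors' deposited table.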

How the data were processed

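Cuffdiff comparisons of 1 treated group with control, over 54175 gene IDs each, were read from 4 full tables, and 4 short lists give log2 fold changes alone. Per the file headers, the full tables carry Cuffdiff's column names; for its version, the aligner, the build and the annotation, the sources used here give nothing. The deposited FPKM pool the 3 libraries of a group. The deposited score is the authors' test statistic, the deposited p-value is theirs, and Benjamini-Hochberg adjustment of it over tested genes gives the deposited q-value. Deposited log2 fold changes are treated over control without a pseudocount. Read depth is unknown.

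Sheet names, which the sample labels cite, gave each table its group; headers in 3 tables differ. Standard errors, z tests and adjustments were computed over all genes with Python 3.11.15, pandas 2.3.3 and SciPy 1.17.1, after tests on simulated data. The planned fit per library could not be made on pooled values, so its planned fallback, the authors' test, was used. Alternatives were a normal p for the statistic, a 2-fold minimum, at least 1 FPKM in either group, pseudocounts of 1 and 0.1, another control or scaling, and assignment by header. Members, lists and the rule for named genes (the 5 members, the nearest course by Euclidean distance, and the nearest tested neighbours) were chosen with earlier results of these data known. The planned list of related flowering genes was not used, since no source paired its names with IDs, and protein and promoter comparisons were not made.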

Additional observations from a re-analysis of the deposited data

How the results depend on the processing

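No paired analysis was possible because the tables hold 1 pooled value per group, and no library could be left out for the same reason. Of 35 recomputed member calls against control by sheet name, 30 kept their side of the threshold and 5 lost it. FT2a in Pcz-BL-8h, listed at 0, was not among the 35, and its call dropped out with the minimum of 1 FPKM. The 2-fold minimum could only take a call away, so members not called kept their side under it by construction. Another 90 values with a pseudocount, another control or another scaling tested the direction only, and 0 reversed. The 15 values with each pseudocount could not reverse, since the same amount was added to both groups. With a normal p for the Cuffdiff statistic, the genes called numbered 11480, 5523, 10822 and 10679 in the 4 tables, from Pcz alone to high BL for 8 h, against 17974, 12797, 19229 and 19563 by the deposited q. The members called then numbered 0 with low BL and 1 after high BL for 1 h, against 2 in each, and 2 after 8 h, against 3, where FT2a has no numeric statistic; the minimum of 1 FPKM also left 2 there. A 2-fold minimum left 11160 genes with Pcz alone and 11279 after high BL for 1 h, and 1 member each with low BL and after high BL for 1 h. Assigned by header, the Pcz-BL group would take the values of sheet Pcz-BL-8h (E2 -2.02, FT2a listed at 0, FT5a -8.05). Pcz-BL-1h would take those of sheet Pcz-BL (E2 -0.72 and not called, FT2a -1.45, FT5a -0.81). Pcz-BL-8h would take those of sheet Pcz-BL-1h (E2 -0.78, FT2a -4.82 and not called). Between treated groups, an assignment by header, added after the data were seen, reversed 6 of 13 differences. Against Pcz alone, FT5a became -4.20 in the low-BL group and 3.04 in the 1 h group, and it became 7.24 for Pcz-BL-1h and 0.17 for Pcz-BL-8h against Pcz-BL. E2 became 1.30 for Pcz-BL-1h and 1.24 for Pcz-BL-8h against Pcz-BL. A pseudocount of 1 brought the log2 fold changes of FT5a to -4.59 and -4.38 in the high-BL tables. FT2a in Pcz-BL-8h, listed at 0, has no finite fold change and was not among these values. Centring each table on its median, added after the data were seen, changed no direction.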

Other observations

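The authors' short lists follow a simple rule that leaves out the lowest florigen values. Each list held every called gene with a finite log2 fold change of at least 2 in size and a deposited p of 5e-05, and no other gene: 3448 of 4618 called genes of that size in Pcz, 2478 of 3579 in Pcz-BL, 2915 of 4005 in Pcz-BL-1h and 3981 of 5420 in Pcz-BL-8h. FT5a is therefore listed in Pcz, at -3.85 in the authors' deposited table, but not in Pcz-BL-1h or Pcz-BL-8h, where it was far lower and had p = 0.0046 and p = 0.00265 by the authors' deposited Cuffdiff test. E2 is listed in Pcz-BL-8h only, and FT2a, E1 and Dt1 are in none of the 4 lists.

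The deposited p-values did not rank as the test statistic does for the florigens. In Pcz-BL-1h, FT2a had a statistic of -2.07 with p = 0.228 in the authors' deposited Cuffdiff table, while in Pcz-BL its statistic of -1.46 had p = 0.0177. Of 13229 tested genes in Pcz-BL-1h with a statistic at least as large in size, 2.77% were not called. For FT5a the statistic was -5.36 in Pcz-BL-1h with p = 0.0046, against -1.89 in Pcz-BL with p = 0.0018, in the authors' deposited Cuffdiff tables. Among the 1946 genes with a statistic at least that large in Pcz-BL-1h, 24 had a p at least as large.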
